A study of Mus musculus with 8 samples.

Results

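Of the 10 genes looked for in the natriuretic peptide and renin-angiotensin systems, 6 were measured in pooled mouse hearts, on 7 of the 9607 array features: Nppb, Nppa, Npr1, Npr3, Ace and Agt. They were found by gene symbol. Nppc, Npr2, Agtr1a and Ren1 were not analysed here. Npr3 was measured by 2 features and the others by 1 each, and the 6 genes passed the filter on the number of arrays.

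The series compared female with male hearts at 2 and at 8 months of age, in the inbred mouse strain C57BL/6. Total RNA of whole hearts from 6 animals was pooled for each sex and age, so 4 pools were compared and no agent or altered allele is named in the labels. Each array set the female pool against the male pool of its age in 2 dyes, Cy3 and Cy5. Each age had 4 arrays, with the female pool in Cy3 on replicates 1 and 3 and in Cy5 on replicates 2 and 4. Both pools of an age were measured again on each of its 4 arrays, so an SD below is the spread of arrays, not of animals, and each age is 1 pair of pools. Whole hearts hold atria, ventricles and vessels, and in such pools fewer cells of a type and less RNA per cell cannot be told apart.

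B-type natriuretic peptide (Nppb) and atrial natriuretic peptide (Nppa) are hormones that heart muscle cells release when the chamber wall is stretched. Both activate the receptor guanylate cyclase Npr1, which makes cyclic GMP and promotes salt excretion and vessel relaxation, while Npr3 takes the peptides up and clears them. The renin-angiotensin system acts in the opposite direction: Agt encodes angiotensinogen, the precursor, and Ace the enzyme that makes angiotensin II, a vasoconstrictor. Nppa is expressed mostly in atria in the adult heart, and Nppb rises in ventricles under load.

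Nppb and Nppa are neighbours on chromosome 4 and are read in the same direction, and the stretch before each start is shown because their ratios differed at 8 months. The sequences are the 250 bases before the annotated start, from RefSeq with build GRCm38.p6, on the plus strand. The promoter table held 7 such windows, at least 1 for each of the 6 genes. Capitals mark the core GATAA of the GATA factors, or TTATC on the other strand, and the M-CAT element CATTCC, or GGAATG on the other strand.
Nppb, chr4:147985650-147985899: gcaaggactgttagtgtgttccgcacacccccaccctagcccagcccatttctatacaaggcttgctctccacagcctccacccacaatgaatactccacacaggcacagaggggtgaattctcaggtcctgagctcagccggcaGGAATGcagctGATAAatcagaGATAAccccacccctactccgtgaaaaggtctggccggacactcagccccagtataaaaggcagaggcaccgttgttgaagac
Nppa, chr4:148000472-148000721: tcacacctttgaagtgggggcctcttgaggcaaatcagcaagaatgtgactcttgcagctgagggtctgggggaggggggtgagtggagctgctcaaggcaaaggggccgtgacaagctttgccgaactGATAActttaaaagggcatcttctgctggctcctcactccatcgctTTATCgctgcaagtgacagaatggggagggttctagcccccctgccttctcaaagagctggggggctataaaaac

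Both windows held 2 GATAA matches. In Nppb they began 94 and 83 bases before the start, both on the plus strand, with an M-CAT match 105 bases before the start on the minus strand. In Nppa they began 121 and 75 bases before the start, on opposite strands, and CATTCC was not found. Of 32851 mouse windows of the same length, 22.6% held GATAA on either strand, 4.28% held it 2 or more times, and 12.6% held CATTCC. The searched motifs do not overlap in these windows. The windows of Npr1, Npr3, Ace (2 starts) and Agt held neither motif. These matches describe letters only.

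Values are log2 ratios of the female over the male pool, positive where the female pool was higher, and the arrays of each dye orientation weigh equally in the mean of an age. Sex-linked genes had the sign that the labels call for on the 8 arrays: Xist was at 2.44 and 3.45, Kdm5d at -2.43 and -2.88 and Eif2s3y at -3.18 and -1.87 at 2 and 8 months. The files hold ratios and no intensities, so neither the level of a gene nor heart muscle markers could be checked by level. Precision is limited by the 1 pair of pools per age, which the 4 arrays of that age measured again. Replicates 1 and 2 at 8 months stood apart. Their ratios drifted with the feature number, which gives the probe order in the file, with a running median that varied by 0.51 and 0.82 (SD) against 0.033 to 0.072 on the other 6 arrays. Results at 8 months are therefore given with these 2 arrays, and for the 6 genes also from replicates 3 and 4 alone. Most 8-month values of other genes are from the 4 arrays, and some had the other sign on replicates 3 and 4. Those 2 replicates carry the female pool in different dyes, and across rows their ratios had a correlation of -0.10. At 2 months the correlation was 0.78 for replicates 1 and 3 and 0.84 for replicates 2 and 4, which share a dye. Pairs that differed in dye lay between -0.03 and 0.22 there. Replicates 3 and 4 at 8 months thus drifted little but did not resemble each other across rows.

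At 2 months the Nppb ratio lay around 0, and at 8 months the female pool had more Nppb on every array. At 2 months, Nppb was at -0.06 and -0.10 on replicates 1 and 3, and at 0.21 and 0.34 on replicates 2 and 4. The sign followed the dye of the female pool, and the dye-balanced mean was 0.10 ± 0.21 (SD, n = 4 arrays). At 8 months, Nppb was at 1.59, 2.30, 1.45 and 0.84 on replicates 1 to 4, high with the female pool in either dye (1.52 in Cy3 and 1.57 in Cy5). These dye means include the 2 arrays that drifted, and without them Nppb was at 1.45 in Cy3 and 0.84 in Cy5. The lowest 8-month array lay above the highest 2-month array. The mean at 8 months was 1.55 ± 0.60 (SD, n = 4 arrays), a ratio of 2.92-fold, and 1.15 or 2.21-fold on replicates 3 and 4.

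Nppb was the 1 of the 6 genes that met the size rule at 8 months, which asked for a ratio of 1.5-fold or more and the same sign on each array. Of the 7812 rows tested, 2.98% met that rule in either direction and 1.68% were higher in females. Among the 5851 rows with a gene symbol, its 8-month ratio ranked 13 from the top. At 2 months 0 of the 6 genes met the rule, against 4.17% of rows. There is no test across animals at either age.

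**Figure D1:**
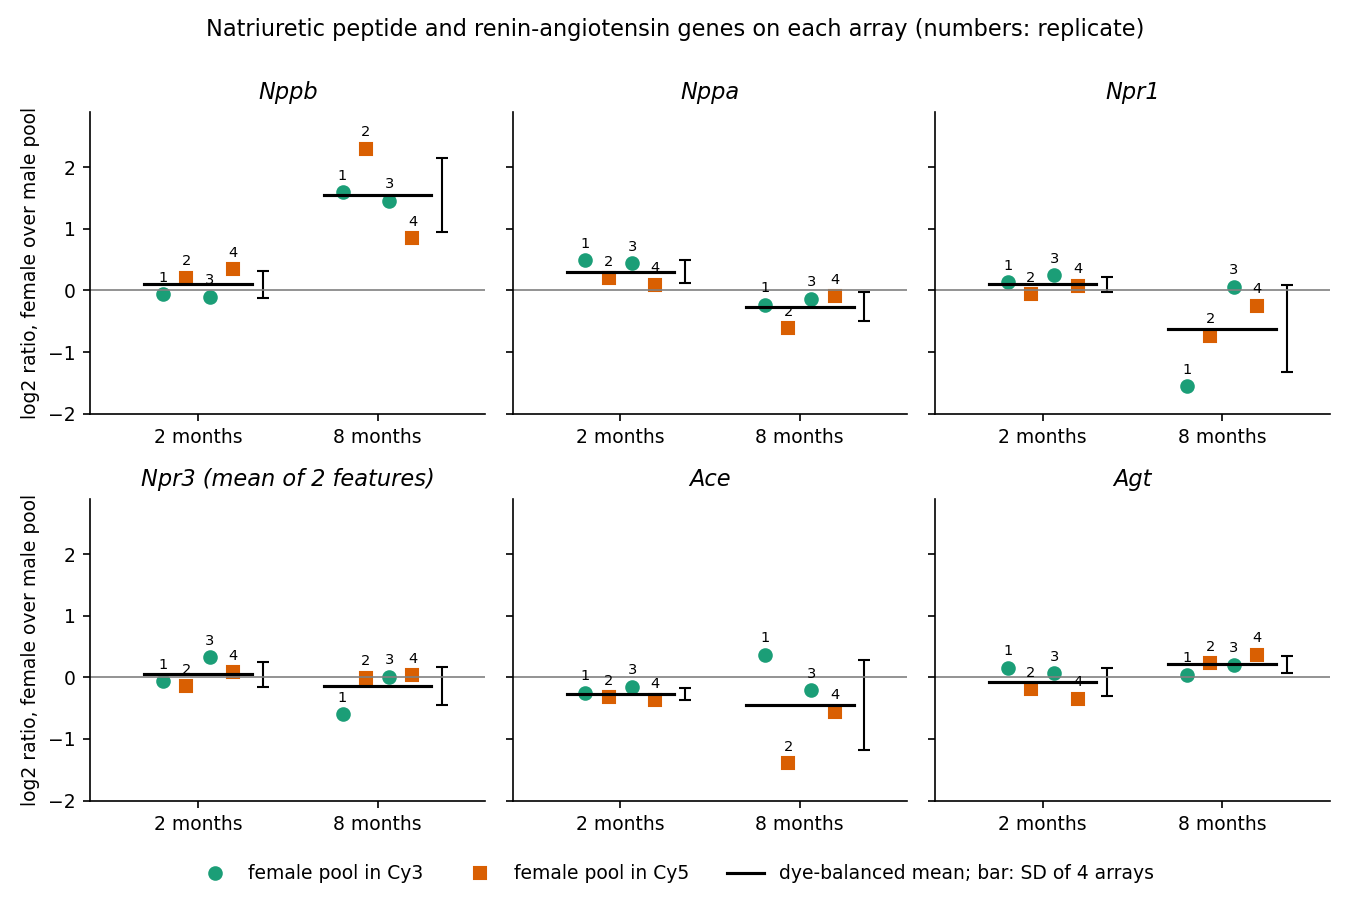
Log2 ratio of the female over the male pool (y axis) for the 6 genes on each array at 2 and 8 months (x axis). Green circles are arrays with the female pool in Cy3 and orange squares arrays with it in Cy5, numbered by replicate; black lines are dye-balanced means and bars the SD of 4 arrays. Nppb lies at 0.84 or above on the 4 arrays at 8 months, while Nppa lies above 0 on the 4 arrays at 2 months and below 0 on those at 8 months.

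Nppb lies near the start of the feature order, where the trend of the distorted 8-month arrays was wide. The running median there was -0.62 on replicate 1, 1.22 on replicate 2, 0.06 on replicate 3 and -0.03 on replicate 4. With it subtracted, Nppb was at 2.21, 1.08, 1.39 and 0.87, and its dye-balanced mean was 1.39. The female pool was thus higher on the 4 arrays with and without the trend.

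**Figure D2:**
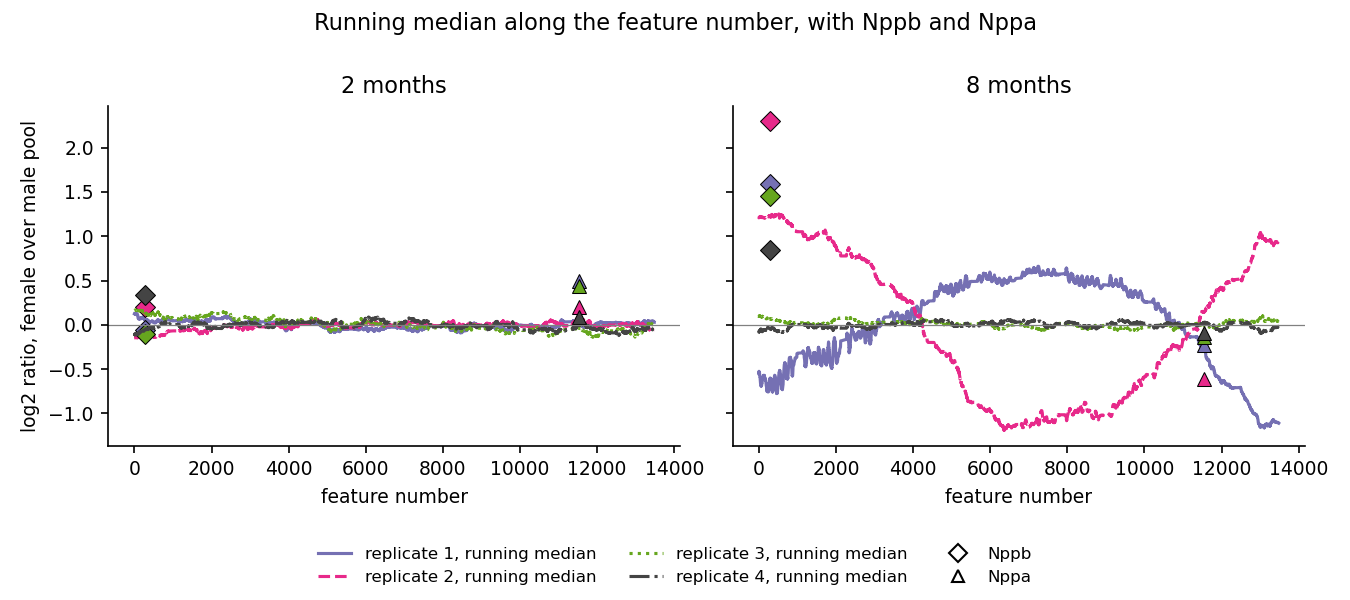
Running median of the log2 ratio (y axis) along the feature number (x axis) on the 4 arrays of 2 months (left) and of 8 months (right), with the values of Nppb (diamonds) and Nppa (triangles) in the colour of their array. Replicates 1 and 2 at 8 months bend in opposite directions, and the Nppb values at 8 months lie above the running median of their own array.

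Nppa moved little, and in the other direction from Nppb. At 2 months it was at 0.49 and 0.44 on replicates 1 and 3 and at 0.20 and 0.09 on replicates 2 and 4, above 0 on all arrays. Its mean was 0.30 ± 0.19 (SD, n = 4 arrays). At 8 months it was at -0.23, -0.61, -0.13 and -0.09, below 0 on all arrays, with a mean of -0.27 ± 0.24 (SD, n = 4 arrays). On replicates 3 and 4 alone the 8-month mean was -0.11, and with the trend removed replicate 1 turned to 0.05. Neither mean reached 1.5-fold. A single sign on all arrays was held by 35.8% of rows at 2 months and by 10.6% at 8 months.

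The 2 hormones therefore had different ratios on the same arrays at 8 months. The Nppb value minus the Nppa value was 0.94 to 2.91 on the 4 arrays at 8 months and -0.55 to 0.25 at 2 months. These ranges could not overlap, because the arrays of the 2 ages already lay apart for each gene, in opposite directions.

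Npr1, the receptor that turns both hormones into cyclic GMP, was near 0 at 2 months: it was at 0.13, -0.06, 0.24 and 0.08 on replicates 1 to 4, with a mean of 0.10 ± 0.13 (SD, n = 4 arrays). At 8 months it was at -1.56, -0.73, 0.06 and -0.25, with a mean of -0.62 ± 0.70 (SD, n = 4 arrays). The low values were those of the 2 distorted arrays, and on replicates 3 and 4 the mean was -0.10. With the trend subtracted Npr1 was at -2.07, 0.25, 0.06 and -0.29, with a mean of -0.51, so replicate 1 alone stayed far below 0. Without replicate 1 the 8-month mean was -0.22, and without replicate 3 it was -1.03 and met the size rule. In that last setting, which keeps both distorted arrays, 533 of 7765 rows met the rule, against 233 of 7812 with all arrays.

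Npr3, the clearance receptor, was at 0.05 ± 0.21 (SD, n = 4 arrays) at 2 months and -0.14 ± 0.31 at 8 months, averaged over its features. The 2 features disagreed. Feature 7526 was above 0 on the 4 arrays at 2 months, at 0.28 ± 0.18 (SD), and feature 746 was at -0.18 ± 0.25 (SD). On replicates 3 and 4 at 8 months both features lay between -0.03 and 0.05. Their features lie in parts of the array where the 8-month trends had opposite signs: on replicate 2 feature 746 was at 1.30 and feature 7526 at -1.31, against running medians of 1.16 and -1.10.

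The mean Ace ratio lay slightly below 0 at both ages. At 2 months it was at -0.25, -0.32, -0.15 and -0.37 on replicates 1 to 4, below 0 on all arrays, with a mean of -0.27 ± 0.09 (SD, n = 4 arrays). A single sign on all arrays at 2 months was held by 35.8% of rows. At 8 months Ace was at 0.37, -1.39, -0.21 and -0.56, with a mean of -0.45 ± 0.74 (SD, n = 4 arrays). The running medians at its position were 0.60 on replicate 1 and -1.09 on replicate 2. With the trend subtracted Ace was at -0.23, -0.30, -0.18 and -0.53, below 0 on the 4 arrays. Replicates 3 and 4 gave a mean of -0.38. The mean of 4 arrays did not reach 1.5-fold at either age. Leaving out single arrays at 8 months gave -0.65 to -0.24, and without replicate 1 it was at -0.59 and met the size rule. Without replicate 1 the rule was met by 378 of 7859 rows, against 233 of 7812 with all arrays.

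Ace is made by endothelial cells, and most markers of those cells lay below 0. Of 7 other endothelial markers, 5 were below 0 at 2 months and 7 at 8 months, against 53.6% and 55.0% of all rows, with medians of -0.22 and -0.24 (-0.13 on replicates 3 and 4). The median over all rows was -0.02 at 2 months and -0.03 at 8 months. Their values ran from -0.51 to 0.05 at 2 months and from -0.69 to -0.14 at 8 months. Of the 7, 0 met the size rule at either age and 0 passed limma (3 had an unadjusted p below 0.05). Over all rows 4.17% met the size rule at 2 months and 2.98% at 8 months. By limma 0.0896% of all rows passed, and 10.4% had an unadjusted p below 0.05. Flt1 had the lowest mean of the 7 at both ages, -0.51 and -0.69, but was above 0 on 1 array at each age. Kdr, a receptor for vascular endothelial growth factor, was at -0.44 and -0.55, and Cdh5, the junction cadherin, at -0.43 and -0.50. Kdr and Cdh5 were below 0 on all arrays, and the rest of the 7 had both signs at each age. The part of endothelial cells in the Ace ratio was not tested.

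Agt, the angiotensin precursor, was at 0.16, -0.19, 0.06 and -0.35 on replicates 1 to 4 at 2 months. Its sign followed the dye of the female pool, and its mean was -0.08 ± 0.23 (SD, n = 4 arrays). At 8 months it was at 0.04, 0.22, 0.21 and 0.36, above 0 on all arrays, with a mean of 0.21 ± 0.13 (SD, n = 4 arrays) and 0.29 on replicates 3 and 4. This 4-array mean corresponds to 1.16-fold, and the arrays of the 2 ages overlapped. A single sign on all arrays at 8 months was held by 10.6% of rows.

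Over both ages, 0 of the 6 genes passed the test on the 2 pairs of pools, against 0.0896% of rows, which is 7 rows. The test was limma over all 7812 rows with Benjamini-Hochberg adjustment, and of the 6 genes Nppb and Ace had an unadjusted p below 0.05, as did 811 rows in all. Nppb was at 0.82 ± 0.32 (SE, n = 2 pool pairs; limma adjusted p = 0.465). Its ratio was positive on 6 of 8 arrays. Without replicate 4 at 8 months it was at 1.00 with a limma adjusted p of 0.00632, while over all settings tried the limma adjusted p ran from 0.00632 to 0.672. With 1 residual degree of freedom that p rests on the variance prior.

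Ace was at -0.36 ± 0.13 (SE; limma adjusted p = 0.441) and was lower on 7 of 8 arrays. The others were at -0.26 ± 0.19 for Npr1 (SE; limma adjusted p = 0.733), -0.05 ± 0.13 for Npr3 (limma adjusted p = 0.946), 0.06 ± 0.14 for Agt (limma adjusted p = 0.923) and 0.02 ± 0.17 for Nppa (limma adjusted p = 0.989).

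Between the ages, the Nppb ratio was 1.45 higher at 8 months than at 2 months on the log2 scale, or 2.73-fold, and 1.05 higher from replicates 3 and 4. It was the 1 of the 6 genes past the size rule for the age difference, 1.5-fold or more and arrays that did not overlap, which 3.29% of rows met. Among rows with a symbol it ranked 20 from the top. The Nppa ratio was lower at 8 months by -0.57, or 1.49-fold, just under the rule, and its arrays did not overlap either. Arrays did not overlap for 5.93% of rows, and 1.72% had opposite signs at the ages on all arrays, as Nppa did. Npr1 differed by -0.72, or -0.19 from replicates 3 and 4, Npr3 by -0.19, Ace by -0.17 and Agt by 0.29, with overlapping arrays. Each age is 1 pair of pools, so age and the animals drawn for it cannot be told apart, and the difference has no test.

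The genes that process the peptides or carry their signal were next. Of 9 measured genes besides the peptides and receptors, 0 met the size rule at 2 months, at 8 months or for the difference, and 0 passed limma (adjusted p below 0.05), 1 with an unadjusted p below 0.05, Mme. Over all rows the shares were 4.17% at 2 months, 2.98% at 8 months, 3.29% for the difference, 0.0896% by limma and 10.4% at an unadjusted p below 0.05, so in lists of this size none or 1 is near the background. Their median was 0.01 at 2 months and 0.06 at 8 months, with 8-month values from -0.29 to 0.18. Mme, the neprilysin that degrades natriuretic peptides, was at -0.33 ± 0.25 (SD, n = 4 arrays) and -0.29 ± 1.02. Rgs2, a regulator of G protein signalling that cyclic GMP-dependent kinase activates, was at 0.42 ± 0.06 at 2 months, between 0.34 and 0.49 on the 4 arrays, and at 0.16 ± 0.76 at 8 months. Dpp4, a peptidase, was at 0.54 ± 0.18 and -0.05 ± 0.84, and the phosphodiesterase gene Pde3b at 0.33 ± 0.19 and 0.18 ± 0.23. Vasp, a substrate of that kinase, was at -0.28 ± 0.62 and -0.24 ± 0.73.

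Among 8 other genes of the renin-angiotensin, aldosterone and kinin systems, 0 met the size rule at either age or for the difference, and 0 passed limma, 0 also at an unadjusted p below 0.05. These counts too lie near the shares of all rows (2.98% by the size rule at 8 months, 10.4% at an unadjusted p below 0.05). Their medians were -0.08 at 2 months and 0.03 at 8 months (-0.06 on replicates 3 and 4). Klk1, a kallikrein that releases kinins, had the highest 8-month value at 0.66 ± 0.68 (SD, n = 4 arrays): it was at 1.08, -0.17, 0.40 and 1.33 on replicates 1 to 4, so it had no single sign. At 2 months it was at 0.13 ± 0.34. Sgk1, a kinase induced by aldosterone and by glucocorticoids, was at 0.44 ± 0.06 and 0.02 ± 0.46. Prcp and Thop1, peptidases that cleave angiotensins, were at -0.18 and -0.19 at 2 months and -0.24 and -0.19 at 8 months. Cma1, a mast cell chymase, was at 0.17 at 2 months and 0.23 at 8 months, but at -0.13 on replicates 3 and 4.

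Nppb is often read together with other genes of the load and fetal program of heart muscle. Of 13 other such genes, 0 met the size rule at either age, 0 passed limma (1 had an unadjusted p below 0.05, Myh6), and 10 were below 0 at 8 months, with a median of -0.11 at both ages. Of all rows 55.0% were below 0 at 8 months, and the size rule was met by 4.17% at 2 months and 2.98% at 8 months. By limma 0.0896% of all rows passed, and 10.4% had an unadjusted p below 0.05. On replicates 3 and 4 the median of the 13 genes was -0.05, and Xirp1 and Ccn1 turned above 0, to 0.27 and 0.09. Acta1, skeletal alpha-actin, was the 1 that met the size rule for the difference, which 3.29% of all rows met. It was at -0.58 ± 0.15 at 2 months, below 0 on the 4 arrays, and at 0.11 ± 0.52 at 8 months, from -0.37 to 0.61. Tnnt2, cardiac troponin T, was at 0.01 ± 0.27 and -0.66 ± 0.75 (-0.21 on replicates 3 and 4), and Myh6, the alpha myosin heavy chain, at -0.28 ± 0.34 and -0.36 ± 0.62. Xirp1 and Actc1 were at -0.40 and -0.08 at 2 months and at -0.10 and -0.36 at 8 months. Myh7 and Ankrd1 were chosen after their values were seen, as classic load markers. Myh7, the beta myosin heavy chain, was at -0.18 ± 0.31 and -0.20 ± 0.57. Ankrd1, a stretch-responsive ankyrin repeat protein, was at 0.02 ± 0.06 at 2 months and at 0.39 ± 0.88 at 8 months, where it was at 1.20, -0.87, 0.62 and 0.62 on replicates 1 to 4.

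Of 11 measured genes on a list of regulators of natriuretic peptide transcription, 0 met the size rule at either age and 0 passed limma, 1 with an unadjusted p below 0.05, Srf, against 10.4% of all rows. Of all rows 4.17% met the size rule at 2 months, 2.98% met it at 8 months and 0.0896% passed limma, so these counts are near the background. The medians of the 11 genes were -0.09 at 2 months and -0.12 at 8 months (0.02 on replicates 3 and 4). Klf15, a repressor of the hypertrophic program that glucocorticoids induce, was the 1 that met the rule for the difference, again beside 3.29% of all rows: it was at 0.58 ± 0.04 at 2 months and -0.02 ± 0.33 at 8 months. Srf, the serum response factor, was at -0.56 ± 0.37 and -0.35 ± 0.50, and on replicates 3 and 4 at 0.06. Gata6 was at -0.23 and -0.10, Mef2c at -0.22 and -0.13, Hand1 at 0.03 and 0.33 and Myocd at -0.09 and -0.21. On replicates 3 and 4 Gata6 was at 0.07, Mef2c at -0.22, Hand1 at 0.19 and Myocd at 0.17.

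**Figure D3:**
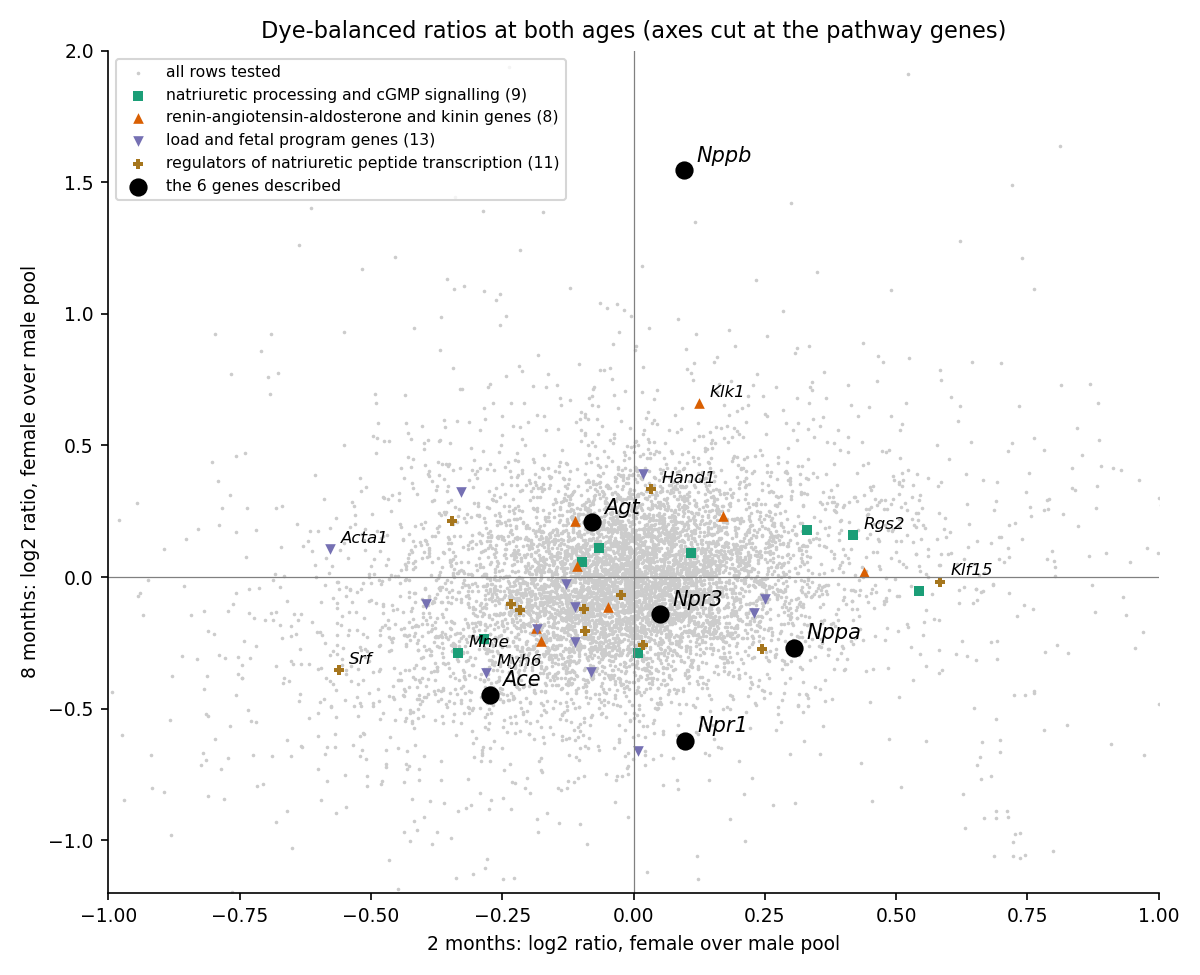
Dye-balanced log2 ratio of the female over the male pool at 2 months (x axis) and 8 months (y axis) for the 6 genes (black), the other genes of 4 lists (coloured, number of genes in brackets) and all rows tested (grey; rows beyond the axes are not drawn). Nppb lies at 0.10 and 1.55, above the genes of the 4 lists, which lie between -0.66 and 0.66 at 8 months.

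Markers of other cells and of the chambers were set beside the Nppb ratio. Of 6 atrial markers other than Nppa, 6 were below 0 at 8 months, from -0.46 to -0.14, with a median of -0.26 (-0.21 on replicates 3 and 4). At 2 months 5 of the 6 were above 0, with a median of 0.08, while 53.6% of all rows were below 0. Of 6 ventricular markers, 2 were above 0 at 8 months, with a median of -0.27 (-0.13 on replicates 3 and 4), and Myl2, the ventricular light chain, was at 0.00 and 0.04. The 8-month means of the atrial markers and Nppa were below 0 and that of Nppb above 0, while 55.0% of all rows were below 0. Each of the 6 atrial markers was above 0 on at least 1 array at 8 months, and 0 met the size rule, against 2.98% of all rows. Their part in the Nppb ratio was not tested.

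Markers from outside heart muscle were compared at 8 months, when 45.0% of all rows were above 0. Of 4 lung epithelial markers 3 were above 0, from -0.06 to 3.12, led by Sftpc at 3.12 ± 1.65 (SD, n = 4 arrays). Of 3 red cell markers 3 were above 0, from 0.62 to 0.84, and of 8 macrophage markers 6 were above 0, from -0.47 to 0.49. The size rule at 8 months was met by 1 of the 4 lung, 1 of the 3 red cell and 0 of the 8 macrophage markers. Of all rows 2.98% met the rule at 8 months and 4.17% at 2 months. The rule for the difference of the ages was met by 0 lung, 1 red cell and 3 macrophage markers, with higher ratios at 8 months. That rule was met by 3.29% of all rows. At 2 months 3 of the 4 lung markers met the rule, with Sftpc at 1.76, and 0 of the red cell and macrophage markers. By limma, over both ages, 0 of the lung, red cell and macrophage markers passed. In each list 2 had an unadjusted p below 0.05, as did 10.4% of all rows. Over both ages the 4 lung and 3 red cell markers were above 0, while 7 of the 8 macrophage markers were below 0. Of the 7812 rows tested, 3524 were above 0 over both ages and 4288 below. At 2 months the 8 macrophage markers were below 0, as were 53.6% of all rows. At 2 months the 10 thymus and T cell markers ran from 0.69 to 4.48 and the 9 adipocyte markers from -0.01 to 2.99, while at 8 months they ran from -0.31 to 1.15 and from -0.58 to 0.34. The size rule was met at 2 months by 10 thymus and 5 adipocyte markers, and at 8 months by 1 and 0. For the difference 10 thymus and 6 adipocyte markers met the rule, with lower ratios at 8 months. Liver markers, set beside Agt, ran from -0.27 to 0.31 over 5 genes at 8 months. Of the other lists, the 9 smooth muscle markers had a median of -0.22, the 6 fibroblast markers 0.03 and the 5 kidney and adrenal markers 0.21 at 8 months. The size rule at 8 months was met by 0 smooth muscle, 1 fibroblast and 1 kidney and adrenal marker. The fibroblast marker was Lum at 0.67, above 0 on the 4 arrays, which also met the rule for the difference at 0.80. The other was Kl, which was lower in females at -0.69. The part of these cells in the Nppb ratio was not tested.

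The genes that flank Nppb and Nppa did not share the Nppb ratio. Among the 20 protein-coding genes within 10 places of the pair, 6 were tested. Their ratios ran from -0.34 to 0.19 at 2 months and from -0.32 to 0.09 at 8 months, or from -0.20 to 0.12 on replicates 3 and 4. The nearest on one side, 2510039O18Rik, was at -0.31 ± 0.19 (SD, n = 4 arrays) and -0.11 ± 0.55. The nearest tested on the other side was Agtrap, the gene of a protein that binds the angiotensin II receptor, at -0.11 ± 0.34 and 0.04 ± 0.62. These neighbours were chosen by position alone, after the Nppb values were seen.

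**Figure D4:**
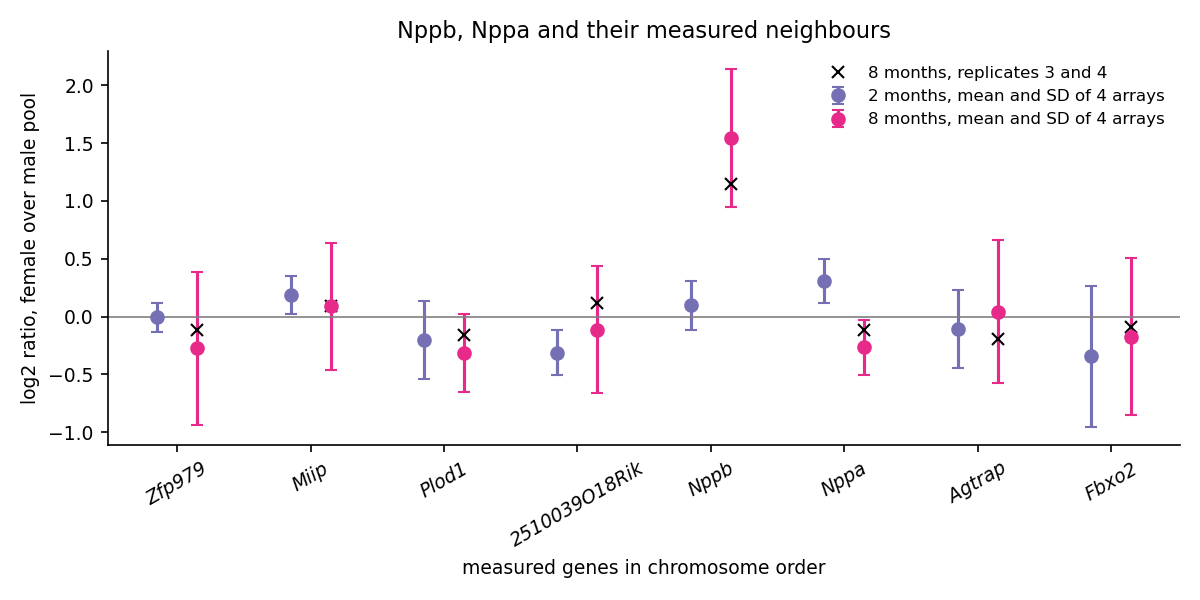
Log2 ratio of the female over the male pool (y axis) for the tested genes around Nppb and Nppa in chromosome order (x axis; untested genes are left out), as mean and SD of 4 arrays at 2 months (purple) and 8 months (pink), with the mean of replicates 3 and 4 at 8 months as crosses. Nppb at 8 months lies at 1.55, and the 6 flanking genes lie between -0.32 and 0.09.

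The rows whose ratios lay closest to those of Nppb were sought among 5633 rows with a symbol and values on the 8 arrays, by the root mean square difference over the arrays. The nearest 6 were Chil3 at 0.48, Nt5e and Saa3 at 0.50, Exosc1 and Tnp2 at 0.51, and Iglv1 at 0.53. Chil3 is a chitinase-like protein of myeloid cells, Saa3 an acute phase protein, Nt5e the ectonucleotidase that makes adenosine, Tnp2 a chromatin protein of sperm cells and Iglv1 an immunoglobulin light chain segment. Nt5e was at 0.02 ± 0.18 at 2 months and 1.18 ± 0.38 at 8 months, from 0.90 to 1.74 on the 4 arrays. Tnp2 was at -0.12 ± 0.16 and 1.10 ± 0.30.

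Without the 2 distorted arrays, over 6 arrays, the nearest were Cyp7b1 at 0.18, Gjb5 and Nt5e at 0.26, Tnp2 at 0.28, Krt80 at 0.29 and Gpha2 at 0.30. Nt5e and Tnp2 were thus the 2 genes near Nppb in both sets. Cyp7b1, an oxysterol hydroxylase, was at 1.15 on replicates 3 and 4, as was Nppb, but at -0.13 on replicate 1. The arrays share their pools, so this likeness is a description.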

How the data were processed

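Hearts were compared on two-colour cDNA arrays. The authors deposited log10 ratios of Cy5 over Cy3 made with Agilent Feature Extraction 7.1.1 (per the labels); whether they normalized further is not stated there. Every column had a median of 0, and no value lay beyond 2 or -2. An exact 0 (6.38 to 13.9% of values per array) was treated as no measurement. Ratios were put on the log2 scale, with the female pool as numerator. Gene symbols came from the platform annotation, brought up to date with RefSeq gene IDs (GRCm38.p6; 6600 of 6671 single-symbol rows matched), and rows of 1 symbol were averaged. A row was tested with values on at least 3 arrays per age in both dye orientations.

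Arrays of an age counted as 1 replicate. The lmFit and eBayes functions of limma 3.58.1 (R 4.3.3; two-sided) were run on the 2 age means. The fit was tested on simulated data. The trend was a running median over 301 features.

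The genes, lists and alternatives (arrays left out, trend removal, centring, scaling, zeros, filter, array weighting, fold of the size rule) were chosen with earlier results of these data known. Named genes were the 6 genes, per pathway list up to 6 with the largest mean over both ages plus those past a rule, up to 4 per marker list, and the 6 rows nearest Nppb.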

Additional observations from a re-analysis of the deposited data

Results flagged for a closer look

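Npr3 at 8 months had 1 array far from the other 3: replicate 1 was at -0.60 (log2, mean of its 2 features), against -0.01 to 0.03 on replicates 2 to 4. Of 16 sets of 4 arrays looked at, this was the 1 with such a gap, and chance gives about 1 in 20. With the trend along the feature number removed, that array was at -0.58.

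Nppa had opposite signs at the ages, above 0 on the 4 arrays at 2 months and below 0 on the 4 arrays at 8 months, with a difference of -0.57 (8 minus 2 months). This difference between the ages was not tested.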

How the results depend on the processing

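Nppb met the size rule at 8 months and for the difference of the ages, and did not at 2 months, under every alternative tried. Leaving out single arrays gave 0.06 to 0.13 at 2 months, 1.18 to 1.91 at 8 months, 1.09 to 1.82 for the difference and 0.64 to 1.00 over both ages, the last called without replicate 4 at 8 months. With the arrays scaled to 1 spread it was at 0.98 at 8 months. Nppa over both ages ran from -0.046 to 0.083 without single arrays. Npr3 over both ages ran from -0.12 to 0.030 without single arrays, with 0.0027 without replicate 1 at 2 months and the highest without replicate 1 at 8 months, and was at 0.035 from replicates 3 and 4. The Nppa difference met the size rule in 4 of 17 settings, the Npr1 difference in 2 of 17, and Npr1 and Ace at 8 months in 1 of 13 each. Without single arrays Npr1 at 8 months ran from -1.03 to -0.22, and the Ace difference from -0.38 to 0.035, above 0 without replicate 2 at 8 months. By limma, 1 row was called from replicates 3 and 4, 1 with the trend removed, 3 with scaling (1 higher) and 0 with zeros as ratios of 1 (887 at an unadjusted p below 0.05), and 4 to 105 without single arrays. By the size rule, 87 rows met 2-fold at 2 months, 67 at 8 months and 123 for the difference. At 8 months 91 met the rule after scaling, 69.2% of them higher against 56.2%, and 376 to 533 without single arrays. Without replicate 3 at 8 months 39.2% were higher (209 higher, 324 lower). For the difference it was 470 from replicates 3 and 4 and 279 to 490 without single arrays. The cause of these shifts was not tested. No paired analysis was possible because arrays of the same number at the 2 ages hold different pools and each age is 1 replicate, so the difference has no test. Signal over background is unknown, since the table holds no intensities.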
